A study of Mus musculus with 3 samples.

Results

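Cells rich in the immunoglobulin kappa constant transcript Igkc were described in 3 single-cell libraries of sorted mouse brain cells. A cell was chosen by its own transcripts: at least 500 detected genes, at most 10% mitochondrial transcripts, Igkc making up at least 0.3% of its unique molecular identifiers (UMIs, the counted transcript molecules), and at least 1 UMI of Cd79a, Ms4a1 or Jchain. Of 11267 cells that passed the gene and mitochondrial limits, 71 met the rule, and 66 of these lay in 1 library. Because Igkc, Cd79a, Ms4a1 and Jchain selected the cells, their levels are a description, and so is every contrast between these cells and the remaining cells.

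B cells carry immunoglobulin on their surface together with the signalling chains CD79A and CD79B, and are marked by the surface protein MS4A1 (CD20) and by the transcription factors PAX5 and EBF1. When B cells become antibody-secreting cells, those surface and transcription factor genes are turned down, immunoglobulin transcripts come to fill much of the RNA, and the endoplasmic reticulum is enlarged. IgA, whose heavy chain constant region is encoded by Igha, is joined into polymers by the J chain, the product of Jchain, and is best known from mucosal tissues. Each B lineage cell assembles its own V segments and normally uses either a kappa or a lambda light chain. In brain, such cells are known mainly from the meninges, the choroid plexus and inflamed tissue.

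All 3 libraries came from brains of Apoe knockout mice, taken on day 4 and sorted as CD45int CD11b+ cells, a gate commonly used for microglia. The groups were sham induction with PBS, induction of neuromyelitis optica spectrum disorder (NMOSD) with a control peptide, and NMOSD induction with the peptide APOE130-149. Each group was a pool of 4 mice and 1 library, so there is no replicate, no test between groups was possible, and mice cannot be told apart within a library. Intervals below cover counting error only, at the 95% level.

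The sham library held 66 Igkc-rich cells of 4231 (1.56%, exact binomial interval 1.21 to 1.98%). The control peptide library held 3 of 5011 (0.0599%, 0.0123 to 0.175%). The APOE130-149 library held 2 of 2025 (0.0988%, 0.0120 to 0.356%). These intervals cover counting error within a library and do not compare the groups. The shares also count unlike cells, described below. Igha was the leading heavy constant gene in all 66 sham cells, and Ighm in all 3 and all 2 cells of the NMOSD libraries. Jchain was detected in all 66 sham cells and in none of the NMOSD cells. The sham library was also the shallowest per cell: the cells outside the rule had a median of 7217 UMIs, while those of the NMOSD libraries had 7853 (control peptide) and 9991 (APOE130-149). Their lower quartiles lay further apart, at 2221 (sham), 5634 (control peptide) and 7002.5 UMIs (APOE130-149). Of the 66 sham Igkc-rich cells, 7 had under 1000 UMIs, 32 had 1000 to 2000 and 16 had 2000 to 4000. The part of these depth differences in the shares was not tested. Deposited totals were 32712199, 61469677 and 32060750 UMIs, in 4674, 5306 and 2175 barcodes. Libraries shared 9 barcodes (sham and control peptide), 0 (sham and APOE130-149) and 3 (both NMOSD libraries), and none of the shared barcodes was an Igkc-rich cell.

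**Figure D1:**
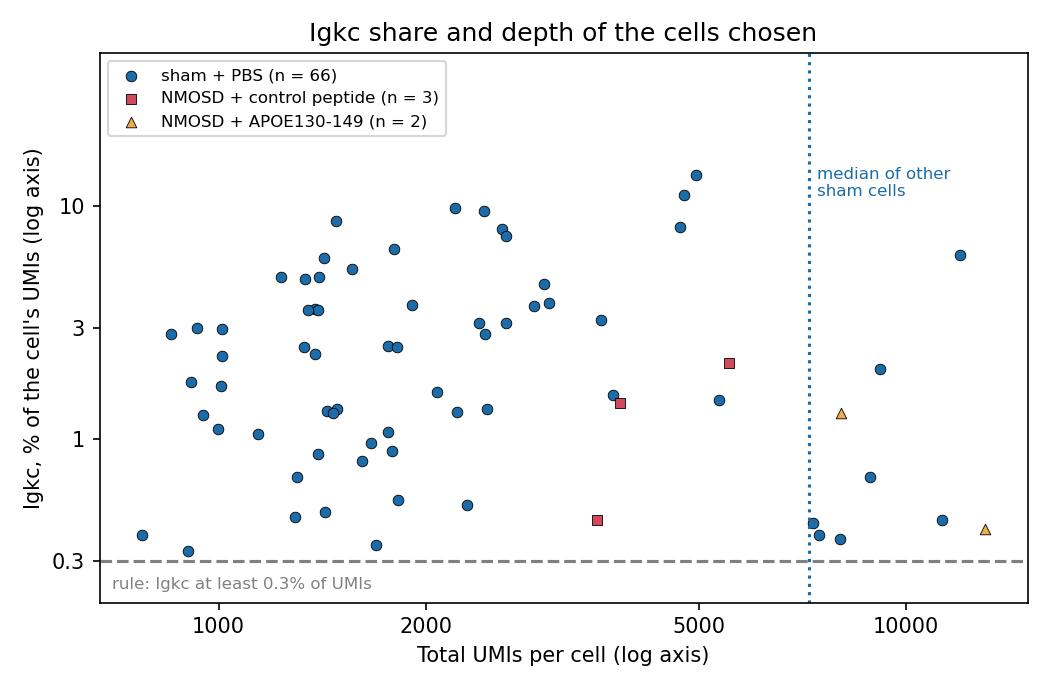
Igkc as a percentage of each chosen cell's UMIs (log axis) against its total UMIs (log axis), for 66 sham, 3 control peptide and 2 APOE130-149 cells. The dashed line is the rule's limit of 0.3%, and the dotted line marks the median of 7217 UMIs in the other sham cells. Of the 66 sham points, most lie left of the dotted line.

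The 66 sham cells were shallow. They held 773 to 11973 UMIs with a median of 1762, against 7217 in the other cells of the library, and a median of 892 detected genes. Their Igkc share ran from 0.333 to 13.5% of UMIs with a median of 2.29%. Just inside the limit were cells at 0.333%, 0.354% and 0.374%, which rested on 3, 6 and 30 Igkc UMIs, and just outside it were cells with a marker UMI at 0.293%, 0.269% and 0.241%, which rested on 4, 20 and 3. The share of cells that met the rule depended on depth: it was 2.09% below 1000 UMIs, 4.57% from 1000 to 2000, 5.99% from 2000 to 4000, 0.502% from 4000 to 8000 and 0.289% above that.

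The label of B lineage cells was checked against the 4 selecting markers and 12 further B cell markers. In the sham cells it was not borne out by the B cell markers. Cd79a had 1 UMI in all 66 cells and Ms4a1 had 0, which allows up to 5.44% of cells with a UMI, so Jchain, with 557 UMIs in 66 of 66 cells, was what met the rule in every one. Pax5, Ebf1, Spib, Blk, Fcmr, Fcer2a and Cr2 were at 0 as well. The 12 further markers summed to 473 CPM (UMIs per 1000000 UMIs, summed over cells; exact Poisson interval 378 to 585) in the Igkc-rich cells against 548 CPM in the other sham cells, and only Cd79b, Cd22, Cd37 and Bank1 were detected. Most of that sum was Cd37, with 68 UMIs at 378 CPM against 447 (ratio 0.85, 0.66 to 1.07). Against other sham cells of like depth, described below, the Cd37 ratio was 1.21 (0.91 to 1.60). The 5 NMOSD cells were different: Cd79a was detected in 5 of 5, Pax5 in 5 of 5, Ebf1 in 5 of 5 and Ms4a1 in all but 1, with Jchain at 0 UMIs. The sham cells are therefore called Igkc-rich cells here and given no cell type name.

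Immunoglobulin in the sham cells meant Igkc and Igha. Igkc (chr6:70726435-70726966, GRCm38, plus strand) stood at 32449 CPM (31622 to 33293), from 5830 UMIs, with 3 to 739 UMIs in a cell and a median of 38.5. Igha stood at 17266 CPM (16663 to 17884), from 3102 UMIs, with 3 to 392 UMIs in a cell and a median of 22.5. Igha had the most UMIs of the heavy constant genes in 66 of 66 cells, and kappa outnumbered lambda in 66 of 66. Ighm, the heavy chain of IgM, had 38 UMIs in 22 cells, or 212 CPM, next to 244 CPM in the other sham cells (ratio 0.87, 0.61 to 1.19). Ighd had 2 UMIs, and Ighg1, Ighg2b, Ighg2c, Ighg3 and Ighe had 0, each allowing up to 20.5 CPM. Igha had not been used in the rule, and its presence in every chosen cell is a measurement on these same cells.

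The proportion of Igha to Igkc was compared from cell to cell. Igha made up 34.7% of the Igha and Igkc UMIs of the 66 cells together (33.7 to 35.7%), or 1.88 Igkc UMIs for each Igha UMI. The cell's own exact interval held this pooled value in 64 of 66 cells and lay above it in 2, with single-cell shares from 13.6 to 57.1%. Shallow cells have wide intervals, so this does not show that their shares are equal. Among the 23 cells with at least 100 UMIs of the pair, the share ran from 28.9 to 41.7%. Cells with little Igkc and cells with much of it had alike proportions: 36.7% (32.9 to 40.7%) in the 22 cells with the lowest Igkc share, 35.2% (32.9 to 37.5%) in the middle 22 and 34.4% (33.3 to 35.6%) in the highest 22. Jchain, itself a selecting gene, made up 8.72% of its pair with Igkc (8.04 to 9.44%), and 66 of 66 single-cell intervals held that value. By group it was 11.99% (9.11 to 15.4%) in the lowest 22 cells, above the pooled value, and 8.63% and 8.44% in the others. Mzb1, which encodes a chaperone of antibody assembly and was not in the rule, made up 3.64% of its pair with Igkc (3.18 to 4.14%), again with 66 of 66 intervals holding that value. Across the 66 cells, counts correlated with Igkc at Pearson r = 0.996 and Spearman rho = 0.965 for Igha and at 0.984 and 0.918 for Jchain. These points share a library and differ in depth, Igkc and Jchain had selected them, and the correlations are descriptions.

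**Figure D2:**
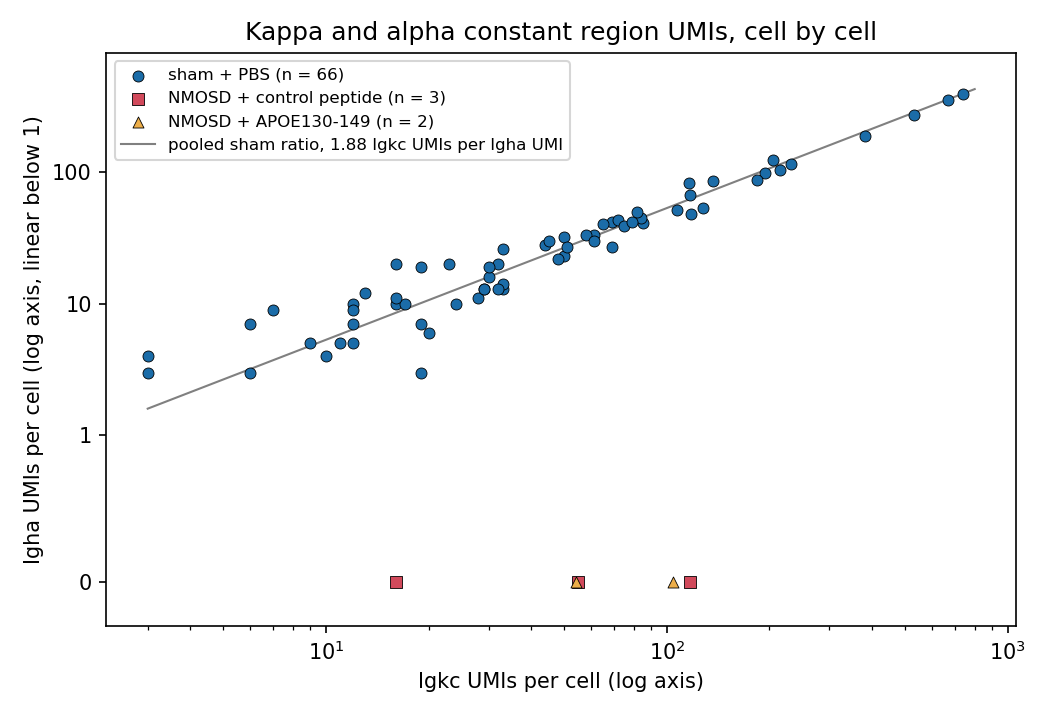
Igha UMIs (log axis, linear below 1) against Igkc UMIs (log axis) in each chosen cell. The 66 sham cells lie along the line of 1.88 Igkc UMIs per Igha UMI, and the 5 NMOSD cells, with 16 to 117 Igkc UMIs, lie at 0 Igha UMIs.

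Few UMIs were assigned to V segments in these libraries, which were made with a 3′ kit. All 13 Ighv UMIs of the sham cells, spread over 12 cells, were assigned to Ighv1-85, a heavy chain V segment. Of 9 Igkv UMIs, 8 were assigned to Igkv1-135, in 6 cells, and 1 to Igkv10-94. All 15 Iglv UMIs, in 13 cells, were assigned to Iglv1. In the other sham cells, 4 of 5 Ighv UMIs were on Ighv1-85 and 4 of 4 Iglv UMIs on Iglv1 as well, while the 10 Igkv UMIs were divided among 5 segments, with 2 of them on Igkv1-135. With at most 4 V UMIs of a locus in a cell, 1 cell had a leading V segment by a limit of 3 UMIs (Igkv1-135). The last 150 bases of the second exon of the 3 recurring segments are shown because they carry the variable part of each chain. Capitals mark the longest stretch shared exactly with the closest other V segment of that locus, 89 bases with Ighv1-21, 67 with Igkv1-122 and 69 with Iglv2, so a read lying wholly inside it does not tell the pair apart. They are reference sequences of GENCODE M21 on GRCm38, 5′ to 3′ on the coding strand, and not reads.
Ighv1-85, chr12:116000028-116000177, minus strand: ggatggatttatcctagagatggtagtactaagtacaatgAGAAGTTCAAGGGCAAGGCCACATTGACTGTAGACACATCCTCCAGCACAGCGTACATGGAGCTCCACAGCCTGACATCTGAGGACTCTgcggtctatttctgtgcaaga
Igkv1-135, chr6:67610359-67610508, plus strand: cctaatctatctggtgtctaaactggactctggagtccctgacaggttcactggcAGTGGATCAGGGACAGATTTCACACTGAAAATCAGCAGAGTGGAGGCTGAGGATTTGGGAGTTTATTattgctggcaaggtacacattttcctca
Iglv1, chr16:19085017-19085166, minus strand: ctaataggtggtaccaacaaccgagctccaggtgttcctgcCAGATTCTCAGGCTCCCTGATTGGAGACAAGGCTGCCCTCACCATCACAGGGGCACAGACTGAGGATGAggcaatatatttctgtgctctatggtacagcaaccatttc

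Lambda transcripts ran beside kappa in these cells. Iglc2, a lambda constant gene, had 76 UMIs in 31 of the 66 cells (423 CPM, 333 to 529) against 0.311 CPM in the other sham cells, and Iglc3 had 7 UMIs. Iglc2 was 1.29% of its pair with Igkc (1.02 to 1.61%), at 1.02%, 1.09% and 1.36% from the lowest to the highest 22 cells by Igkc share, with overlapping intervals. Lambda constant genes are close copies of each other, so their division between Iglc2 and Iglc3 is uncertain.

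Genes known from antibody-secreting cells accompanied the immunoglobulin. Of 15 genes in a list of plasma cell identity, 10 were measured at 50 CPM or more in either sum, and 6 were at least 4-fold higher in the sham Igkc-rich cells than in the other sham cells, with 0 lower (median log2 ratio 2.57). Over all 3810 genes measured, 0.866% were at least 4-fold higher and 1.73% lower, with a median log2 ratio of -0.17. Since the rule used this contrast, nothing is read from these shares. Jchain, a rule gene, is among the 6. Mzb1 had 220 UMIs in 51 cells, or 1225 CPM (1068 to 1397) against 0.777 CPM, a ratio of 1576 (1040 to 2489). Derl3, an endoplasmic reticulum degradation factor, stood at 77.9 CPM against 1.15, Fkbp11, a prolyl isomerase of secretory cells, at 89.1 against 1.37, and Txndc5, a disulfide isomerase, at 212 against 29.9. Creld2, an endoplasmic reticulum stress gene, stood at 184 CPM against 37.0. Xbp1, the transcription factor that drives secretory expansion, was at 378 CPM against 150 (ratio 2.53, 1.96 to 3.21). Of the 10 measured genes, 9 had a ratio above 1. The exception was Tent5c, at 94.6 CPM against 134 (ratio 0.71, 0.41 to 1.14).

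Regulators and surface markers of the antibody-secreting state had few UMIs and no common direction. Prdm1, a transcription factor, had 1 UMI (5.57 CPM, 0.14 to 31.0, against 31.7), while Irf4, another, had 4 UMIs in 3 cells (22.3 CPM, 6.07 to 57.0, against 5.16). Sdc1 (syndecan-1, a surface marker) had 5 UMIs in 4 cells (27.8 CPM, 9.04 to 64.9, against 0.155), all in the 22 cells with the highest Igkc share. Slamf7 had 1 UMI. Tnfrsf17, a survival receptor, stood at 66.8 CPM against 32.2 CPM in the other cells. Among 12 B cell transcription factors, 6 were measured and 1 was at least 4-fold higher. This was Pou2af1, a coactivator of immunoglobulin genes, with 19 UMIs in 12 cells (106 CPM, 63.7 to 165) against 0 UMIs in the other sham cells. With 3 UMIs given to those cells its ratio was 1134, and the exact interval from the counts began at 836. Against the other sham cells of like depth (described below), also at 0 UMIs, its ratio was 26.3 and the interval began at 19.4. Ikzf3 had 1 UMI. Mef2c and Pou2f2, at 456 and 429 CPM, stood at 0.46 and 0.54 of the other cells' level, but at 1.07 and 1.32 times that of the cells of like depth. Of 11 genes of the B cell receptor complex, 5 were measured and 0 were at least 4-fold higher or lower. The Cd81 level of 3562 CPM led them, beside 2791 CPM in the other cells (ratio 1.28, and 0.92 against the cells of like depth). Fewer cells of a type and less RNA per cell cannot be told apart in such sums.

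Genes of protein secretion were modestly higher. In a list of 23 secretory pathway and endoplasmic reticulum chaperone genes, 21 had a ratio above 1 and 0 reached 4-fold in either direction (median log2 ratio 0.81). The median log2 ratio over all 3810 genes measured was -0.17. Manf, a secreted stress protein of the reticulum, stood at 746 CPM (625 to 883) against 194, a ratio of 3.85 (3.22 to 4.57). Sec61b, a subunit of the protein import channel, stood at 618 CPM (508 to 744) against 190, a ratio of 3.24 (2.66 to 3.91). Hspa5, the main chaperone of the reticulum, stood at 1258 CPM (1099 to 1433) against 583, a ratio of 2.16 (1.89 to 2.46). Herpud1 and Ssr2 had ratios of 2.42 and 2.65. The exceptions were Pdia3 at 0.85 and Sel1l at 0.97, both with intervals that held 1.

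Against other sham cells of like depth the picture for these lists was the same in kind. The reference was then the 419 other sham cells with 1356 to 2616 UMIs, the interquartile range of the Igkc-rich cells. It was chosen after the data were seen. Only the reference was cut to that range. All 66 Igkc-rich cells, of 773 to 11973 UMIs, stayed in their sum, and a few deep ones carry much of it (given below). Depth was thus matched on 1 side only, and ratios against cells of like depth hold this limit. Of 3562 genes measured, 0.87% were at least 4-fold higher and 0.898% lower. The median log2 ratio over all these genes was -0.04. Of the plasma cell identity list, 6 of 10 were at least 4-fold higher. Of the secretory list, 21 of 23 had a ratio above 1 with a median log2 ratio of 0.62. The secretory genes below 1 were then Ssr3 at 0.95 and Spcs3 at 0.76, while Pdia3 and Sel1l stood at 1.05 and 1.13. The Mzb1 ratio was 183 (77.2 to 569) and the Hspa5 ratio 2.25.

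The promoters of the secretory genes were read for the endoplasmic reticulum stress element, a known binding site of the unfolded protein response, spelled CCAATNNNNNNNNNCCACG and searched on both strands from 250 bases before to 50 after each start in RefSeq promoters of GRCm38.p6. It was found for 6 of 18 genes of the list that had a promoter in the table (33.3%), namely Calr, Dnajc3, Hsp90b1, Hspa5, Pdia6 and Syvn1, and for 37 of 27025 genes in all (0.137%). Creld2 and Derl3 held it among 14 genes of the plasma cell identity list. A match is a description of letters and not of binding. The search used the genes of a list and no counts, so its share says nothing about the cells described here. The 3 stretches below are examples, with capitals on the element, which reads in reverse complement in Creld2. Hspa5, Pdia6 and Creld2 were higher in the Igkc-rich cells, as were most genes of the secretory list.
Hspa5, chr2:34772005-34772063, plus strand: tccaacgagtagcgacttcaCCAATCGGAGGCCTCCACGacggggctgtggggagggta
Pdia6, chr12:17266471-17266529, plus strand: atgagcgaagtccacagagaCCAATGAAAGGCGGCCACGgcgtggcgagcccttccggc
Creld2, chr15:88819500-88819558, plus strand: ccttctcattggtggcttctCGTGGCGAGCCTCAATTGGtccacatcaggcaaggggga

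Outside immunoglobulin and rule genes, the 20 genes with the highest ratio included Mzb1, Txndc5, Creld2, Manf and Sec61b, described above, and Sec11c, a signal peptidase subunit, at 701 CPM against 230 (ratio 3.05, 2.54 to 3.64). Rrm2, a ribonucleotide reductase subunit needed for DNA synthesis, had 26 UMIs in 20 cells, or 145 CPM against 5.97, a ratio of 24.3 (15.4 to 36.6). Birc5 (survivin), which acts in cell division, had 28 UMIs in 23 cells, or 156 CPM against 13.6, a ratio of 11.4 (7.50 to 16.7). Against the other cells of like depth these ratios were 10.8 (5.04 to 25.1) for Rrm2 and 8.31 (4.23 to 17.1) for Birc5. Ube2s, Stmn1 and Tubb4b, which act in mitosis or on microtubules, had ratios of 4.20, 3.14 and 3.99, and of 3.92, 2.05 and 3.22 against the cells of like depth. Mki67 and Top2a, markers of cycling cells from another list, stood at 77.9 and 50.1 CPM with ratios of 2.22 (1.21 to 3.75) and 1.71 (0.78 to 3.25), and of 3.42 (1.56 to 7.38) and 2.67 (1.02 to 6.63) against the cells of like depth. Chchd10, a mitochondrial protein, had a ratio of 39.8 (23.2 to 65.2), and of 6.93 (3.23 to 15.5) against the cells of like depth. Rexo2, Ly6a, Glipr1, Lsm5, Lrrc59, Ccl5, Mrpl57 and Txn1 completed the 20, with ratios from 2.77 to 5.81, and Ccl5, a chemokine, went from 3.11 to 1.72 with the reference of like depth.

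The 10 genes with the lowest ratio were led by neutrophil granule genes. Ngp stood at 16.7 CPM against 523, a ratio of 0.032 (0.0066 to 0.093) from 3 UMIs, Camp at 16.7 against 484, S100a9 at 178 against 3041 and S100a8 at 212 against 2784, and Lcn2, Retnlg and Ltf had 0, 0 and 2 UMIs. Summed over 6 neutrophil markers, the Igkc-rich cells held 629 CPM (518 to 756) against 7311 CPM in the other sham cells. Per cell, the median was 732 CPM in the Igkc-rich cells and 554 CPM in the others, whose highest cell reached 489932 CPM. In the other cells of like depth it was 1353 CPM. Ash1l, Arpc5 and Ankrd12 had ratios of 0.15, 0.17 and 0.17 against all other sham cells, and of 0.42, 0.18 and 0.39 against those of like depth.

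Microglial RNA was present in every Igkc-rich sham cell. All 66 carried UMIs of at least 3 of 10 microglia markers, with a median of 9. The summed level of these markers was 33952 CPM (33105 to 34815), from 15578 to 47035 CPM in a cell, beside 35209 CPM in the other sham cells and 37045 CPM in the 419 cells of like depth. The sorting markers Ptprc (CD45) and Itgam (CD11b) summed to 1096 CPM against 1455. T cell, NK cell, erythroid, choroid plexus, neuron and mast cell markers were all at 0 UMIs, border-associated macrophage markers at 4 UMIs, and monocyte markers at 751 CPM against 1756. Of 6 precursor B cell markers, Vpreb3 alone was detected, with 1 UMI. The part of doublets and of free RNA in these profiles was not tested. Any 2 of the 66 barcodes differed by at least 5 bases.

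Within the sham cells, several genes followed the Igkc share that had ordered them. From the lowest over the middle to the highest 22 cells, Mzb1 stood at 223, 764 and 2706 CPM, and Hspa5 at 609, 1058 and 2136 CPM. Manf stood at 268, 686 and 1320 CPM. Tnfrsf17 and Tent5c, of the plasma cell identity list, fell instead, on few UMIs. They stood at 89.2, 78.4 and 32.6 CPM and at 119, 98.0 and 65.2 CPM. The 23 secretory genes summed to 6480 CPM (5886 to 7118), 9307 CPM (8489 to 10183) and 14721 CPM (13776 to 15713), beside 6024 CPM in the other sham cells, so the lowest group was near the other cells and the highest was 2.27-fold (2.02 to 2.55) above the lowest. Among 896 genes with at least 20 UMIs over both extreme groups, 9.38% were at least 2-fold higher and 16.5% at least 2-fold lower in the highest, while of 16 secretory genes so measured 12 were 2-fold higher and 0 lower. The groups were formed by Igkc, so this is a description.

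Microglia markers took the opposite course. They summed to 37868 CPM (36412 to 39368), 37679 CPM (36014 to 39402) and 26556 CPM (25282 to 27877) from the lowest to the highest group. The highest group was thus at 0.70 (0.66 to 0.75) of the lowest, and 0 of the 10 markers had a ratio above 1, where 42.9% of all 896 genes did. Malat1, a nuclear RNA, stood at 16794, 11835 and 4793 CPM, and 7994 CPM in the other cells of like depth. Median depth was 1640, 1791 and 2059 UMIs, but a few deep cells carry much of each sum: 5, 2 and 4 cells of 4000 UMIs or more held 42986, 14526 and 26361 of the groups' UMIs. Without them Malat1 stood at 3169 CPM (2501 to 3960), 3561 CPM (2975 to 4228) and 2258 CPM (1788 to 2815), so its course over the groups rested on those cells. The microglia sums were then 39012, 37223 and 30015 CPM, with the highest group at 0.77 (0.70 to 0.84) of the lowest, and the secretory sums 6626, 8025 and 12521 CPM, 1.89-fold (1.57 to 2.28) higher in the highest group. Of 12 secretory genes still measured, 6 were at least 2-fold higher and 0 lower. Of all 384 genes then measured, 28 were at least 2-fold higher and 27 lower. When CPM were taken without immunoglobulin genes and Jchain, the median log2 ratio of all 896 genes moved from -0.17 to -0.01 and the genes at least 2-fold higher and lower were 105 and 108 in place of 84 and 148. On that scale the secretory sum was 2.54-fold (2.27 to 2.86) higher and the microglia sum 0.79 (0.74 to 0.84) of the lowest group, with 1 of 10 markers above 1, where 49.8% of all genes were. Without the cell with most Igkc UMIs, they were 2.36 (2.09 to 2.66) and 0.73 (0.68 to 0.78).

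**Figure D3:**
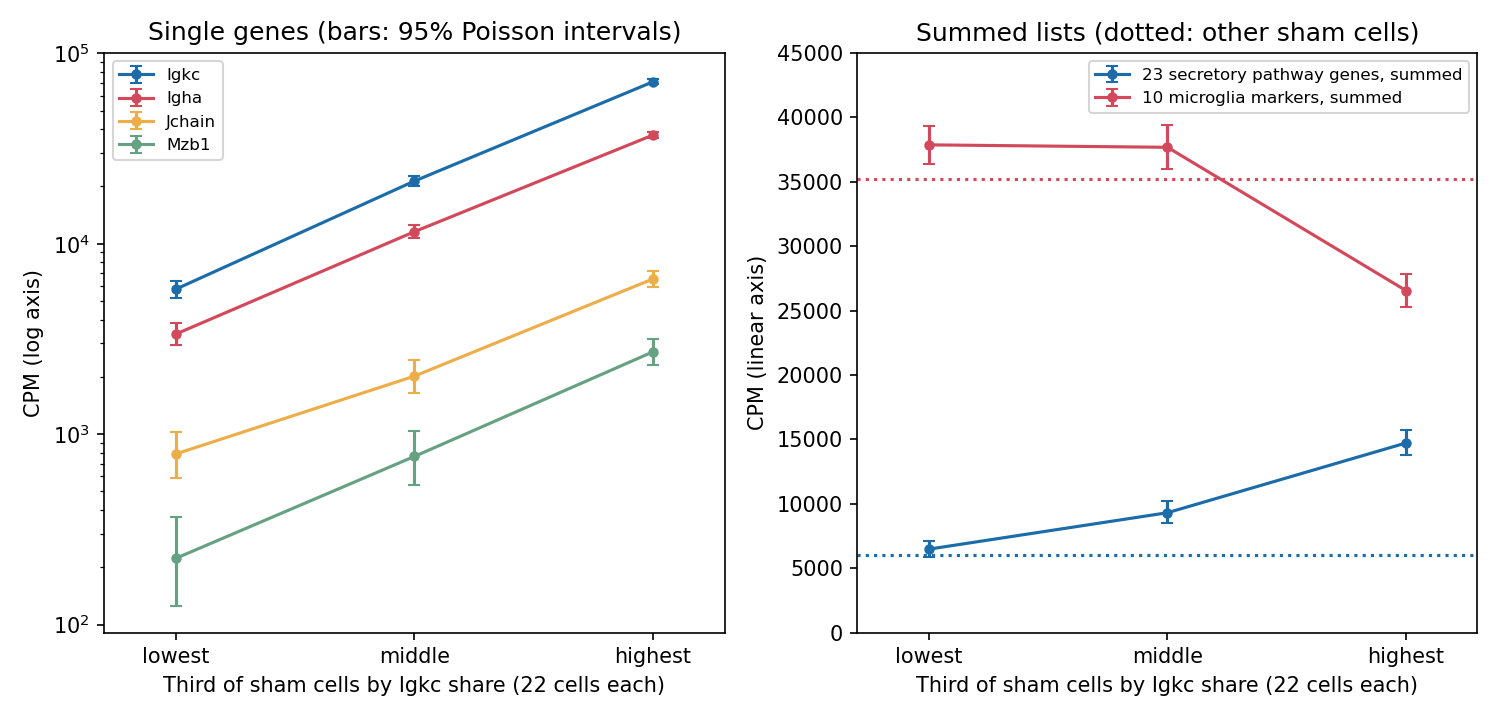
Levels in the sham Igkc-rich cells, in 3 groups of 22 cells ordered by Igkc share. Left, Igkc, Igha, Jchain and Mzb1 in CPM on a log axis, each higher in each further group. Right, sums of 23 secretory genes and 10 microglia markers on a linear axis, where the former reach 14721 CPM and the latter 26556 CPM in the highest group, with dotted lines for the other sham cells.

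By a limit of 10% of UMIs for Igkc, heavy constant genes and Jchain together, with at least 1 Jchain UMI, 10 of the 66 sham cells (15.2%, 7.51 to 26.1%) were the immunoglobulin-richest, up to 21.8% of UMIs. The share was 37.9% at a limit of 5% and 1.52% at 20%. All 10 had 0 UMIs of Ms4a1, Cd22 and Pax5. Of the remaining 56, 1 cell had a UMI of Cd22 and 0 had a UMI of Ms4a1 or Pax5. The cell with the highest share held 4943 UMIs, of which 666 were Igkc, 352 Igha, 60 Jchain and 34 Mzb1, and 77 were microglia markers.

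Igkc and Igha were not restricted to the chosen sham cells. Of the 4165 other sham cells, 629 (15.1%, 14.0 to 16.2%) had an Igkc UMI and 525 (12.6%) an Igha UMI, at 29.96 and 21.9 CPM. With each cell thinned to 1000 UMIs, which left out 328 shallower cells, the shares were 4.56% and 4.09%. In the control peptide library 8 of 5008 other cells (0.160%) and in the APOE130-149 library 10 of 2023 (0.494%) had an Igkc UMI, and thinned shares were 0.0612% and 0.101%. Igha was at 0 UMIs in both NMOSD libraries. This allows up to 0.0736% (control peptide) and 0.182% (APOE130-149) of their other cells with an Igha UMI. A further 16 sham cells held at least 0.3% Igkc with no marker UMI. They held 114 Igkc and 64 Igha UMIs, a share of Igha in the pair of 36.0% (28.9 to 43.5%), and the NMOSD libraries had 0 such cells.

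Levels in these other sham cells depended on depth. Igkc stood at 281 CPM (223 to 350) below 1000 UMIs, 252 CPM (221 to 287) from 1000 to 2000, 85.97 CPM (66.1 to 110.0) from 2000 to 4000, 22.6 CPM (19.4 to 26.2) from 4000 to 8000 and 18.3 CPM (16.6 to 20.2) above. Igha followed at 211, 164, 73.7, 16.5 and 13.8 CPM. Igha made up 42.2% (39.8 to 44.6%) of the pair in the other cells, above the 34.7% of the chosen cells, which were selected on Igkc. Over all sham barcodes together it was 35.9% (35.0 to 36.8%). Both UMIs were seen in 140 other cells, Igkc alone in 489, Igha alone in 385 and neither in 3151. The part of free RNA in these levels was not tested.

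**Figure D4:**
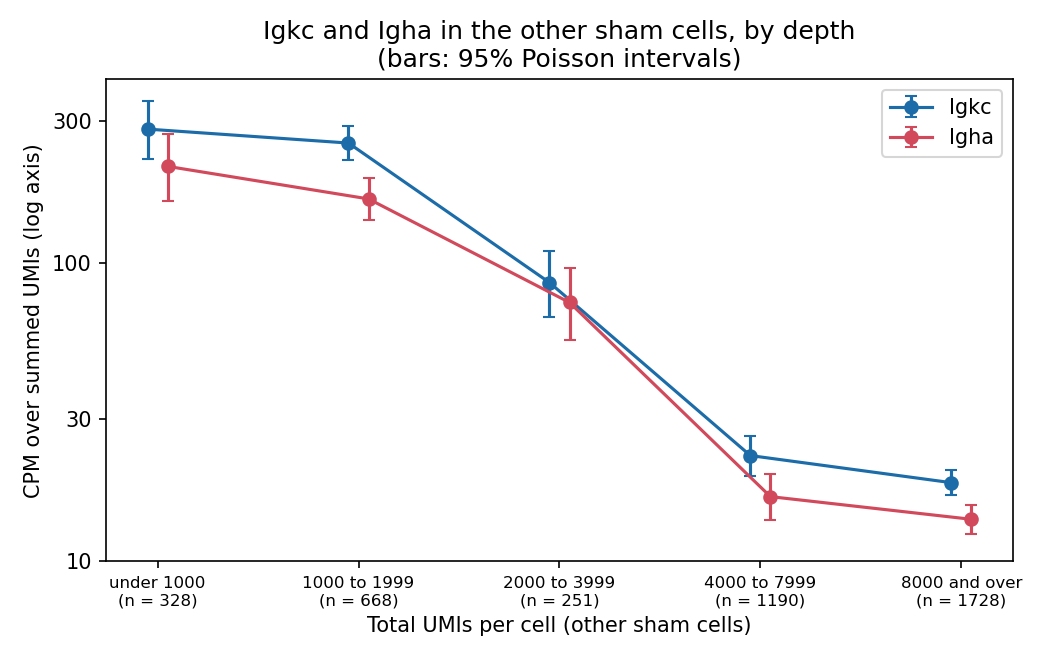
Igkc and Igha in the 4165 other sham cells, as CPM (log axis) over cells grouped by total UMIs, with 95% Poisson intervals. Both are highest in cells under 2000 UMIs and lowest in cells of 8000 UMIs and over, at 18.3 and 13.8 CPM.

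The 5 cells of the NMOSD libraries had a different set of genes. With the control peptide, 3 cells of 5525, 3839 and 3554 UMIs held 117, 55 and 16 Igkc UMIs, 26, 41 and 26 Ighm UMIs and 32, 17 and 26 Cd79a UMIs. Vpreb3, a surrogate light chain partner of developing B cells, had 33, 14 and 21 UMIs, and Ebf1 had 7, 14 and 24. Ms4a1 had 16, 2 and 0, and Rag1, of the V(D)J recombinase, had 3 UMIs in the last cell only. Lambda outnumbered kappa in that cell, with 12 Iglc2 and 5 Iglc3 UMIs beside 16 Igkc. MHC class II gene H2-Ab1 and the mature B cell gene Fcer2a were at 0 in all 3. Cd74, the MHC class II invariant chain, differed among them, with 51, 1 and 1 UMIs. Just below the Igkc limit, 1 more cell of that library held 21 Igkc, 46 Ighm, 18 Cd79a, 49 Ebf1 and 33 Vpreb3 UMIs, and 0 of Ms4a1.

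With APOE130-149, 2 cells of 8045 and 13051 UMIs held 104 and 54 Igkc UMIs, 23 and 13 Ighm UMIs and 17 and 32 Cd79a UMIs. H2-Ab1 had 36 and 28 UMIs, Cd74, the invariant chain, had 123 and 76, and Fcer2a (CD23) had 9 and 5. Ms4a1 had 14 and 5 and Vpreb3 5 and 0. The second cell also held 11 Ighd UMIs and 415 microglia marker UMIs, or 31798 CPM, while the first held 8, or 994 CPM. In the control peptide cells the microglia sum was 1302 to 10129 CPM. All 5 cells had Ighm as leading heavy constant gene and 0 UMIs of Igha and Jchain. Apoe, whose knockout all groups share, had 18 UMIs (100.2 CPM) in the sham Igkc-rich cells and 0 in the 5 NMOSD cells, and 105 to 147 CPM over all cells of a library. 3′ UMIs outside a deleted part check nothing, and which part was deleted is not given in the sources used here.

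**Figure D5:**
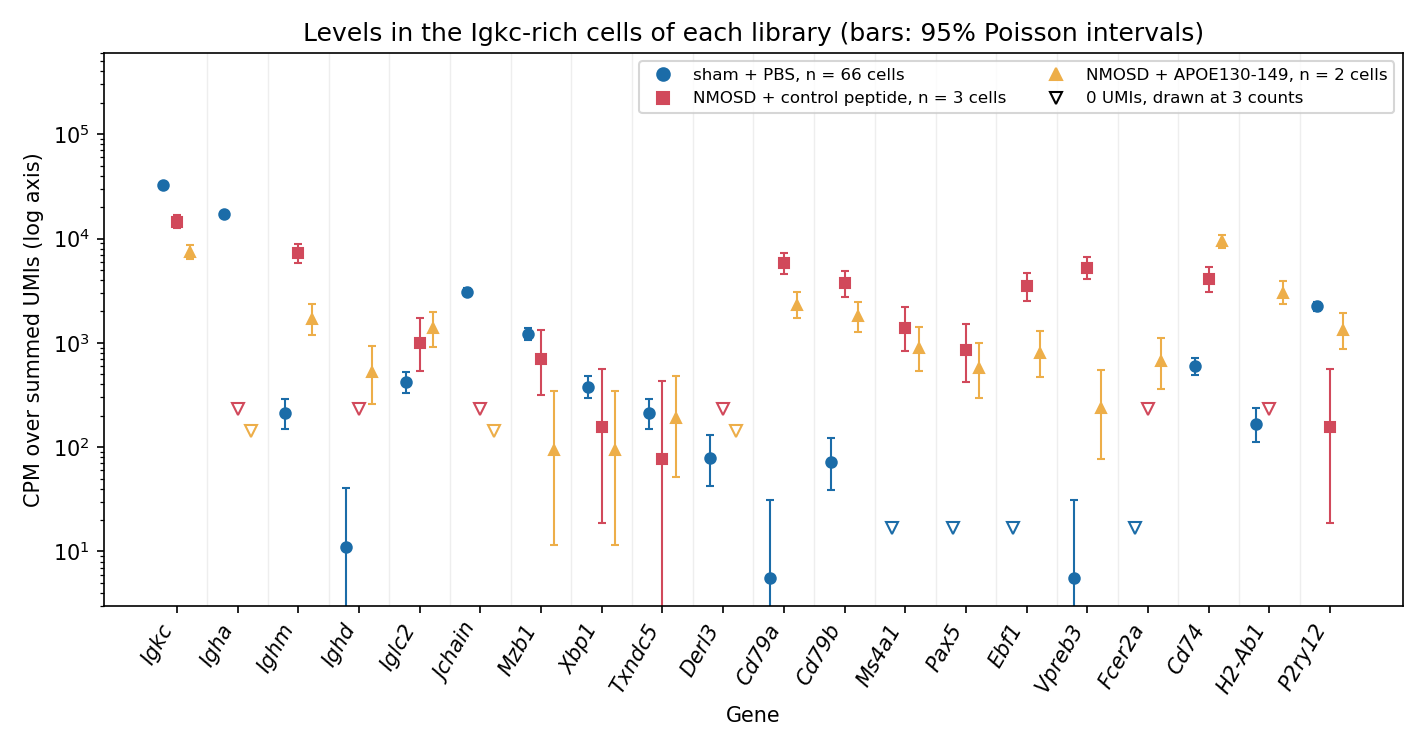
CPM (log axis) of 20 genes over the Igkc-rich cells of each library, with 95% Poisson intervals. Open triangles stand for 0 UMIs and are drawn at the level of 3 counts. Igha and Jchain are present in the 66 sham cells and at 0 in the NMOSD cells, while Cd79a, Ms4a1, Pax5 and Ebf1 are present in the latter.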

How the data were processed

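Brain cells sorted as CD45int CD11b+ were profiled with a 10x 3′ kit, per the labels' protocols. Per the file headers, each deposited matrix lists integer counts of UMIs by gene and by barcode, and there is 1 matrix per group. The submitters' processing notes name Cell Ranger 5.0.1, Seurat 4.3.0 and mm10, while the matrix header names Cell Ranger 7.0.1. The treatment of introns and strand is not given in the sources used here; if introns were counted, unspliced RNA would weigh more in CPM.

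Barcodes under 500 genes or over 10% mitochondrial UMIs were left out. No doublets were removed. UMIs were summed over cells as CPM with exact Poisson intervals, shares with Clopper-Pearson intervals and ratios with exact conditional intervals. A gene with 0 UMIs was given 3 counts. Genes with 50 CPM in either sum entered the background, called at 4-fold. Named genes were the 20 highest (at least 50 CPM, 20 UMIs and 5 cells) and the 10 lowest ratios (at least 100 CPM in other cells), leaving out mitochondrial, ribosomal, haemoglobin, immunoglobulin and unnamed genes, with rule genes, immunoglobulin genes and members of 17 lists added. The comparison of B-type with immunoglobulin-richest cells was not made, since 1 sham cell met the B-type rule, on 1 UMI of Cd22. The groups of 22 cells and their comparison without cells of 4000 UMIs or more were set after the data were seen. Members and lists were chosen with earlier results of these data known. Of 32285 gene identifiers, 32235 were found in GENCODE M21. Intervals were tested on simulated data. Python 3.11.15, numpy 2.4.6, pandas 2.3.3, scipy 1.17.1 and matplotlib 3.10.9 were used.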

Additional observations from a re-analysis of the deposited data

Results flagged for a closer look

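Igha was also counted in barcodes that the gene and mitochondrial limits left out. The 443 such sham barcodes held 77 Igha UMIs (218 CPM) and 138 Igkc UMIs (392 CPM), while the 295 and 150 left-out barcodes of the NMOSD libraries held 0 Igha UMIs, which allows up to 4.49 and 9.43 CPM. Igha made up 35.8% of the pair with Igkc in the left-out sham barcodes (29.4 to 42.6%). This was singled out because these barcodes enter no comparison above.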

How the results depend on the processing

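None of the 30 highest and lowest genes changed direction under the alternatives that were run. They had been picked as the most extreme ratios of this contrast, so a change was unlikely and this does not measure stability. Counts and shares were compared by size only, since they have no direction to change. Of 95 list genes detected in the sham cells and measured at 50 CPM there or in both references, 24 lay on the other side of 1 against cells of like depth, among them Mef2c, Pou2f2, Cd81 and Pdia3. The sham share of 1.56% was 0.806% with at least 1000 genes per cell and 1.16% with Igkc at 1% or more, and the NMOSD shares stayed within their intervals. The immunoglobulin-richest share of 15.2% was 37.9% at a limit of 5% and 1.52% at 20%. Igha led in 92.4% of cells when 5 UMIs were required, and cells with a leading V segment numbered 4 in place of 1 with 2 UMIs. Genes at least 4-fold higher numbered 33, and 57 with Igkc at 1% or more and 78 from 20 CPM. Genes at least 4-fold lower numbered 66, and 179 by the mean of per-cell CPM, 206 with Igkc at 1% or more, 256 from 20 CPM and 32 against other cells of like depth, a reference added after seeing the data. The cause of these shifts was not tested. Of 270 ratios of named genes over 9 alternatives, 44 moved beyond their counting interval and 0 changed direction. Secretory genes at least 4-fold higher numbered 0, but 1 with CPM without immunoglobulin and 2 with Igkc at 1% or more. The alternative without cells holding 3 microglia markers was not run, because it left no sham cell. No paired analysis was possible because each group is 1 library. Shallow cells limit what can be seen: a gene at 0 UMIs in the sham cells may stand at up to 20.5 CPM.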

Other observations

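Antigen presentation genes of the sham Igkc-rich cells lay within 4-fold of the other sham cells. Of 10 genes of MHC class II and its loading, 7 were measured and 0 were 4-fold higher or lower (median log2 ratio -0.21). H2-Aa stood at 100.2 CPM against 258 CPM in the other sham cells, a ratio of 0.39 (0.23 to 0.61), and H2-Ab1 at 167 against 292. Cd74 stood at 596 CPM against 689. Of 14 activation and immediate early genes 9 were measured, and 0 reached 4-fold (median log2 ratio 0.38).

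Other lists of B cell biology gave few measured genes, and 0 of them reached 4-fold against the other sham cells. Against cells of like depth 1 did, Cd44 of the homing and chemokine receptor list. Its ratio was 5.34 (1.77 to 16.9), from 9 UMIs in 8 cells. Of 14 genes of B cell receptor signalling 11 were measured, with a median log2 ratio of -0.64 and none above 1, among them Lyn, a kinase also found in myeloid cells, at 423 CPM against 610. Against cells of like depth the median was -0.25, and 3 were above 1. Over all genes measured, the median was -0.17 against the other sham cells and -0.04 against those of like depth. Medians were -0.24 for 6 costimulation and survival receptors, -0.10 for 3 homing and chemokine receptors, 0.96 for 2 germinal centre genes, 0.01 for 6 interferon response genes, 0.02 for 2 cytokines and -0.01 for 2 marginal zone and B-1 genes. The naive follicular and precursor lists had 1 measured gene each. Ccr10, a homing receptor of IgA-secreting cells, had 5 UMIs in 5 cells (27.8 CPM, 9.04 to 64.9) against 0.497 CPM in the other sham cells. It was named after its value was seen.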
